A study of Caenorhabditis elegans with 9 samples.

Results

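The genes described here are the math, bath and btb genes of Caenorhabditis elegans, chosen by their WormBase symbol (math, bath or btb, a hyphen and a number). Of the 46739 genes in the count table, 89 carry such a symbol: 37 math, 36 bath and 16 btb genes, all annotated as protein coding. A further symbol of this kind, *btb-22*, was not analysed here. mRNA was sequenced from wild-type worms of the strain N2, placed on RNAi plates as L1 larvae and harvested at the L4 stage. The worms were fed bacteria with the empty vector (EV, n = 3 libraries), with *cco-1* RNAi (n = 3) against a subunit of cytochrome c oxidase in the mitochondrial respiratory chain, or with *his-3* RNAi (n = 3). This clone is named for a histone H2A gene and is directed against several of them. All groups shared the strain, the genotype and the nominal stage of harvest, and RNA came from whole larvae, so that every tissue was pooled. Adult stage markers differed between the groups (below), and whether the worms were equally far in development was not tested. In such bulk RNA, fewer cells of a type and less RNA per cell cannot be told apart. The sources used here do not say whether the 3 libraries of a group were separate cultures, so that p-values measure the spread between these libraries, which may be technical.

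Many proteins with a BTB domain dock onto the cullin CUL-3, the scaffold of a family of ubiquitin ligases. They bring in the protein that is to be marked with ubiquitin. The MATH domain is a substrate-binding fold. The bath genes encode both domains, as does *mel-26*, whose product hands the microtubule-severing protein MEI-1 to CUL-3 after meiosis. The math genes are named for the MATH domain and the btb genes for the BTB domain. Like the F-box genes, which serve CUL-1 ligases, these families are greatly expanded in C. elegans and lie largely in tandem clusters, and the substrates of most members are not known. *math-33* stands apart as the orthologue of human USP7, a deubiquitinase with a MATH domain.

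The libraries held 25129763 to 32017517 reads on genes. The gene targeted by *cco-1* RNAi, listed as *cox-5B*, had 12749, 12691 and 12509 normalized counts in the EV libraries, 4945, 4538 and 4656 upon *cco-1* RNAi and 9261, 9633 and 9409 upon *his-3* RNAi, where a normalized count is the read count scaled to a library of average effective size. The *his-3* gene had 175, 180.1 and 169 normalized counts with EV, 107, 100.3 and 119.9 upon *his-3* RNAi and 22.5, 16.97 and 13.6 upon *cco-1* RNAi, so that it was lowest in the libraries labelled *cco-1* RNAi. Markers of tissues and stages also moved. Upon *cco-1* RNAi 5 of 7 intestine markers were higher and 2 lower, and 5 of 7 neuron markers were higher. In the same comparison 12 of 13 tested sperm, 5 of 5 muscle, 7 of 12 germline, 4 of 11 oocyte and 6 of 6 adult stage markers (*col-19* and vitellogenins) were lower, while 1 germline and 1 oocyte marker were higher. The summed intestine level was 208013 to 211350 upon *cco-1* RNAi against 106928 to 117719 with EV. Upon *his-3* RNAi 7 of 7 intestine, 5 of 5 muscle and 6 of 6 adult stage markers were lower. Of the oocyte markers 8 of 11 were higher and 2 lower, and of the germline markers 4 of 12 were higher and 6 lower. Neuron markers were higher in 4 of 7 cases, and of the sperm markers 1 was higher and 1 lower. The summed adult stage level lay between 78395 and 91336 with EV, 6667 and 8604 upon *cco-1* RNAi, and 21237 and 23942 upon *his-3* RNAi. No marker was at 0 in any group, and the part of these shifts in the results below was not tested.

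The members lay close together in the genome. Of the 89, 76 were on chromosome II and 69 of them between 1023693 and 3733181 (WBcel235), a stretch of 2.71 Mb in the left part of that chromosome, whose bound of 4 Mb was drawn after their positions were seen. This stretch held 35 of 37 math, 23 of 36 bath and 11 of 16 btb genes. With the starts of neighbours at most 20 kb apart, 66 members formed 13 clusters of 2 or more, and 23 stood alone. Outside chromosome II there were 5 members on chromosome I, 4 on III, 1 on IV, 3 on V and 0 on X. An exon was shared with another gene by 19 members, among them *math-26* with *math-3* and *btb-16* with *btb-18* on the same strand, and *bath-46* with *bath-26* and *bath-47* with *bath-33* on opposite strands. The strand setting of the counting is not given in the sources used here, so that the reads of these neighbours may not be fully told apart.

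The level per gene length (RPKM, reads scaled by exon length and by the reads on genes of the library) ranged in EV from 0 to 67.7, which was the level of *math-33*. The median was 0.787 for math, 3.72 for bath and 3.85 for btb genes. A level below 1 was found for 19 of 37 math, 9 of 36 bath and 7 of 16 btb genes, and a level above 10 for 7, 8 and 3. Members in the left part of chromosome II had a median level of 2.03, and the 20 elsewhere had one of 9.93. Thus the math genes held both the member with the highest level and a large share of those with hardly any reads. No read was found in any library for *btb-8* and *math-25*, which allows up to 3 reads each over the libraries together.

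**Figure D1:**
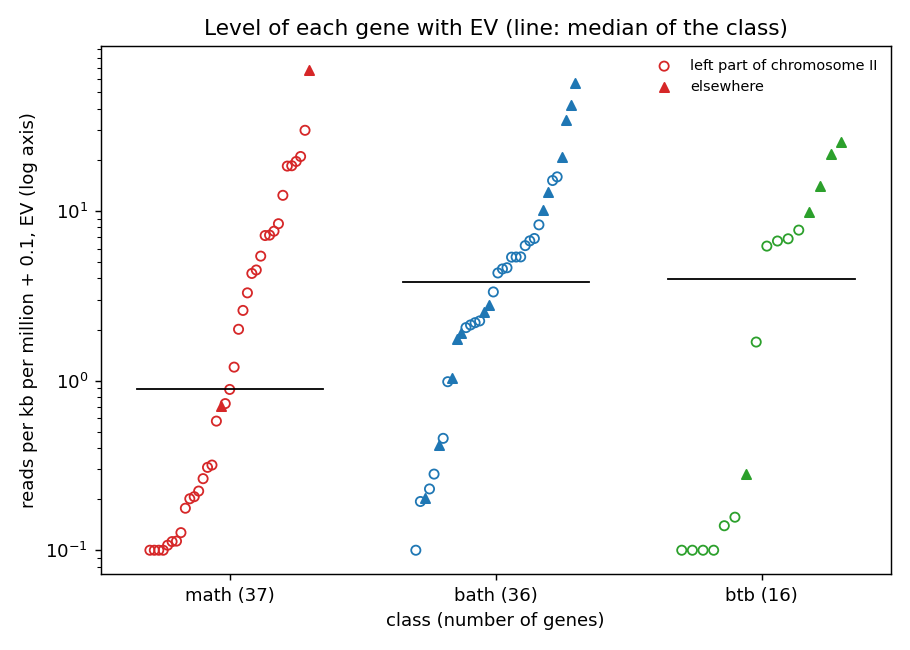
Level per gene length of each of the 89 genes in EV, as RPKM plus 0.1 on a log axis, by class, with circles for the left part of chromosome II, triangles for other positions and a line at the median of the class. *math-33*, with 67.7 the highest point, lay on chromosome V, and 19 of the 37 math genes lay below 1.

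Differential expression was tested for the 16817 genes that had over 5 reads in more than 3 of the 9 libraries. Of the members 69 passed this filter (25 math, 34 bath and 10 btb genes) and 20 did not (12, 2 and 6). A gene read in the 3 libraries of a single group cannot pass it, and the 20 are described separately below. A gene is called higher or lower at an adjusted p under 0.05, taken over all genes tested.

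Both treatments moved a majority of all genes tested (70.8% upon *cco-1* RNAi and 54.8% upon *his-3* RNAi), so that the members' counts have to be read against that background. Upon *cco-1* RNAi 30 of 69 members were higher and 13 lower, where 34.9% and 35.9% of all genes tested were. Upon *his-3* RNAi 21 were higher and 14 lower, against 26.9% and 27.9% of all genes. The median log2 fold change of the members was 0.25 upon *cco-1* RNAi and 0.11 upon *his-3* RNAi, beside 0.0061 and 0.020 over all genes tested. The share of members called higher was thus nearer to the background upon *his-3* RNAi (30.4% of 69) than upon *cco-1* RNAi (43.5%), while the share called lower was below the background in both (20.3% and 18.8%). Where another scaling was used, the split of higher to lower calls upon *cco-1* RNAi was 46 to 7 when scaled to *act-1* and *pmp-3* (reference genes) and 42 to 10 with upper quartile or library size. Upon *his-3* RNAi it was 37 to 8, 28 to 11 and 35 to 9. These scalings moved the median of all genes to between 0.095 and 0.17 upon *cco-1* RNAi and between 0.10 and 0.31 upon *his-3* RNAi, and relative to that median the members stayed at 0.24 and 0.09.

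The tested members are also given by class, to be read against the shares of all genes tested. Those were 34.9% higher and 35.9% lower upon *cco-1* RNAi, and 26.9% and 27.9% upon *his-3* RNAi. Among 34 bath genes 14 were higher and 3 lower (41.2% and 8.8%) upon *cco-1* RNAi, and 14 and 2 (41.2% and 5.9%) upon *his-3* RNAi. Their medians of the log2 fold change were 0.29 and 0.20. Among 25 math genes 12 were higher and 7 lower (48% and 28%) upon *cco-1* RNAi, and 6 and 9 (24% and 36%) upon *his-3* RNAi. Their medians were 0.24 and -0.089. Among only 10 btb genes 4 were higher and 3 lower, then 1 higher and 3 lower, with medians of 0.15 and -0.17. The medians of math and btb genes upon *his-3* RNAi were above 0 with library size (0.13 and 0.048) or the reference genes (0.20 and 0.12) as the scaling, under which the median of all genes shifted as well, so that both stayed below it by 0.11 and 0.19. The small counts turned on single libraries. The btb genes higher upon *cco-1* RNAi numbered 2 without EV replicate 3 or *cco-1* RNAi replicate 1, and those higher upon *his-3* RNAi 2 without *his-3* RNAi replicate 2. The bath genes lower upon *his-3* RNAi numbered 1 without EV replicate 2 or 3, *cco-1* RNAi replicate 1, or *his-3* RNAi replicate 1 or 2. The bath genes called higher had log2 fold changes of 0.16 to 2.03 upon *cco-1* RNAi and 0.15 to 0.92 upon *his-3* RNAi. A difference between the classes was not tested.

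The stricter threshold of the study, which besides the adjusted p asks for a change of 2 or more on the log2 scale, was passed by few members. Upon *cco-1* RNAi 4 were higher (*math-38*, *math-10*, *math-45* and *bath-45*), against 4.31% of all genes tested, and 0 lower, against 6.61%. The count of 0 was the same at an unadjusted p under 0.05 and with DESeq2 or limma-voom. Upon *his-3* RNAi 2 were higher (*math-38* and *math-10*), against 3.23%, and 1 lower (*btb-17*), against 0.714%. The single lower call rested on a log2 fold change of -2.01 and numbered 0 without EV replicate 3 or without *his-3* RNAi replicate 2.

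**Figure D2:**
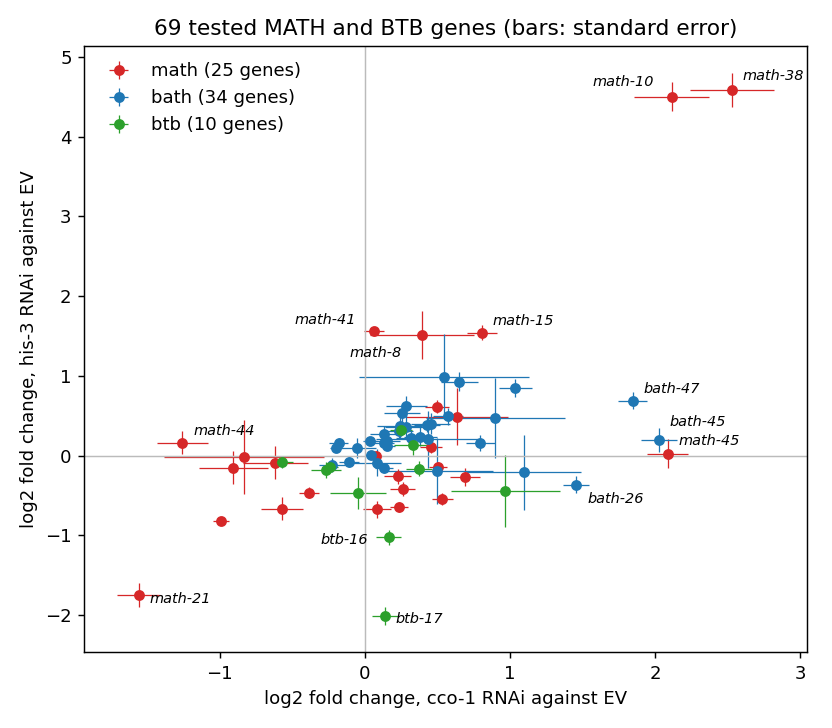
Log2 fold changes upon *cco-1* RNAi (x axis) and *his-3* RNAi (y axis), each against EV, of the 69 tested genes, with bars of 1 standard error and colours for the class. *math-38* and *math-10* lay far above the other genes on the y axis, at 4.58 and 4.50, and *math-45* and *bath-45* lay at the right with *his-3* RNAi values of 0.02 and 0.19. Both axes share the EV libraries.

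Among the bath genes called higher upon *cco-1* RNAi, *bath-45*, *bath-47* and *bath-26* had the largest rises and the lowest p. *bath-45* (chromosome II, 13123020 to 13125189, plus strand) had 42.5, 59.7 and 54.9 normalized counts in EV, 216, 214 and 210.0 upon *cco-1* RNAi and 58.1, 55.2 and 66.1 upon *his-3* RNAi. All *cco-1* RNAi libraries were above all others, a 4.07-fold rise (log2 fold change 2.03, SE 0.12, adjusted p = 2.52e-10), while *his-3* RNAi and EV overlapped (log2 fold change 0.19, SE 0.15, adjusted p = 0.307). Without EV replicate 1 the *cco-1* RNAi value fell below the threshold of 2, so that no bath gene passed it. After these 3 genes the largest rise was that of *bath-9*, which rested on few reads (normalized counts of 9.33, 4.42 and 4.73 in EV and 12.3, 16.97 and 10.2 upon *cco-1* RNAi, log2 fold change 1.09, SE 0.40, adjusted p = 0.0214), and its call was lost with DESeq2 and without EV replicate 2 or 3 or *cco-1* RNAi replicate 2.

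*bath-47* and *bath-26* are neighbours in the left part of chromosome II, where they and *bath-46* lay within 8.27 kb (chromosome II, 1597906 to 1606179) together with *bath-33*, for which a single read was found in all libraries. *bath-47* had 112, 145 and 133 normalized counts in EV, 447, 479 and 471 upon *cco-1* RNAi and 184, 222 and 221 upon *his-3* RNAi. It rose in both treatments, 3.59-fold upon *cco-1* RNAi (log2 fold change 1.84, SE 0.10, adjusted p = 4.18e-11) and 1.61-fold upon *his-3* RNAi (log2 fold change 0.69, SE 0.11, adjusted p = 4.85e-05). *bath-26*, on the other strand, had 153, 145 and 135 normalized counts in EV, 372, 424 and 392 upon *cco-1* RNAi and 102, 117 and 117 upon *his-3* RNAi. It rose 2.74-fold upon *cco-1* RNAi (log2 fold change 1.46, SE 0.090, adjusted p = 2.57e-10) and fell upon *his-3* RNAi (log2 fold change -0.37, SE 0.11, adjusted p = 0.00819), with library groups that did not overlap in either case. The fall was not called with library size or the reference genes as the scaling. *bath-46* had 198, 236 and 227, then 391, 405 and 351 and 215, 274 and 246 normalized counts, and was called upon *cco-1* RNAi (log2 fold change 0.80, SE 0.10, adjusted p = 1.84e-06) but not upon *his-3* RNAi (log2 fold change 0.15, SE 0.10, adjusted p = 0.219). Thus the 3 tested genes of this cluster were all higher upon *cco-1* RNAi, and by different amounts, while upon *his-3* RNAi 1 was higher, 1 lower and 1 not called.

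Among the math genes, *math-45* (chromosome II, 1510287 to 1517454, minus strand) had a like pattern to *bath-45*. Its normalized counts were 38.4, 46.4 and 37.9 in EV, 191, 168 and 160.0 upon *cco-1* RNAi and 40.3, 36.8 and 47.2 upon *his-3* RNAi, a 4.25-fold rise upon *cco-1* RNAi (log2 fold change 2.09, SE 0.14, adjusted p = 8.49e-10). The *his-3* RNAi libraries lay among those of EV (log2 fold change 0.02, SE 0.18, adjusted p = 0.92). *math-18*, with 168, 171 and 145 normalized counts in EV, had 241, 277 and 261 upon *cco-1* RNAi and 117, 137 and 147 upon *his-3* RNAi, and rose 1.61-fold upon *cco-1* RNAi alone (log2 fold change 0.69, SE 0.10, adjusted p = 1.47e-05 and log2 fold change -0.27, SE 0.11, adjusted p = 0.0549). The direct comparison of the treatments gave a difference for both genes (*math-45* 2.06, adjusted p = 7.20e-10, and *math-18* 0.96, adjusted p = 4.12e-07, as log2 of *cco-1* RNAi over *his-3* RNAi). A pair of bath genes, *bath-36* and *bath-39*, lay on chromosome V and rose in both treatments. *bath-36* had 87.1, 66.3 and 88.02 normalized counts in EV, 172, 159.7 and 167 upon *cco-1* RNAi and 146, 143 and 148 upon *his-3* RNAi, with log2 values of 1.04 (adjusted p = 5.71e-07) for *cco-1* RNAi and 0.85 (adjusted p = 1.13e-05) for *his-3* RNAi. *bath-39* went from 116, 91.7 and 95.6 in EV to 150.4, 177 and 149 and 213, 189 and 175, with log2 values of 0.65 (adjusted p = 2.14e-04) for *cco-1* RNAi and 0.92 (adjusted p = 6.24e-06) for *his-3* RNAi. Each of these has an exon shared with a gene on the same strand.

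**Figure D3:**
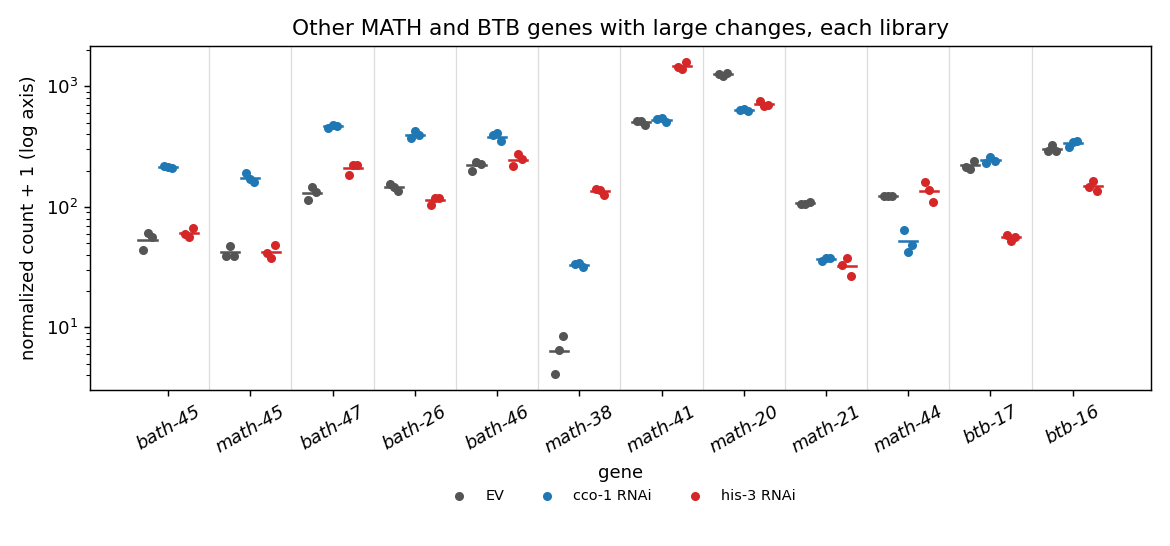
Normalized counts plus 1 (log axis) of 12 genes outside the run of neighbouring math genes, chosen for large changes, in each library, with a line at the mean of the 3 libraries of a group. *bath-45*, *math-45*, *bath-47*, *bath-26* and *bath-46* were highest upon *cco-1* RNAi, *math-38* and *math-41* upon *his-3* RNAi, and *btb-17* and *btb-16* lowest upon *his-3* RNAi.

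Upon *cco-1* RNAi the 4 largest falls that were called were those of math genes, and 2 of these genes fell in both treatments. *math-20* (chromosome II, 1996537 to 1998531, plus strand), with 1272, 1221 and 1290.1 normalized counts in EV, had 629, 652 and 625 upon *cco-1* RNAi and 758, 681 and 699 upon *his-3* RNAi. This was 0.504 and 0.565 times the EV level (log2 fold change -0.99, SE 0.055, adjusted p = 6.15e-11, and log2 fold change -0.82, SE 0.053, adjusted p = 1.34e-09). *math-21*, its neighbour on the same strand, fell further, from 105, 104 and 109.8 in EV to 34.8, 36.9 and 36.3 upon *cco-1* RNAi and 31.9, 36.8 and 25.5 upon *his-3* RNAi, or 0.34 and 0.297 times the EV level (log2 fold change -1.56, SE 0.15, adjusted p = 8.35e-08, and log2 fold change -1.75, SE 0.15, adjusted p = 4.16e-08). *math-44*, next to them, fell upon *cco-1* RNAi only: it had 121, 122 and 121 normalized counts in EV, 63.4, 40.9 and 47.7 upon *cco-1* RNAi and 161, 137 and 109 upon *his-3* RNAi (log2 fold change -1.26, SE 0.18, adjusted p = 7.81e-06, and log2 fold change 0.16, SE 0.14, adjusted p = 0.365), and the treatments differed (log2 -1.42, adjusted p = 1.39e-06). *math-48* and *math-49*, a pair further left on the chromosome, likewise fell upon *cco-1* RNAi, *math-48* at -0.62 (adjusted p = 0.0236) and *math-49* at -0.91 (adjusted p = 0.00283), with -0.09 and -0.15 upon *his-3* RNAi, neither of which was called. *math-22* and *math-42* fell in both treatments, by 0.38 and 0.57 upon *cco-1* RNAi and by 0.47 and 0.67 upon *his-3* RNAi on the log2 scale. In this stretch of chromosome II, bath genes further to the right did not follow *math-20*: *bath-21* (0.45 and 0.40) and *bath-3* (0.43 and 0.39) were higher in both treatments and *bath-5* (-0.11 and -0.08) was called in neither.

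Upon *his-3* RNAi several of the largest changes lay in a run of 10 neighbouring math genes (chromosome II, 1866381 to 1890782). These were *math-15*, *math-14*, *math-10*, *math-13*, *math-16*, *math-5*, *math-6*, *math-7*, *math-8* and *math-9*. The run is part of a cluster of 18 members (1866381 to 1922765), and its right end was drawn with the values known. Past that end *math-24* and *math-22* were called lower upon *his-3* RNAi, *bath-4* and *bath-7* were called higher, and *math-25* had no read. The summed level of the 10 genes of the run was 797 to 879 normalized counts in EV, 1132 to 1291 upon *cco-1* RNAi and 1738 to 2000 upon *his-3* RNAi. The groups did not overlap, but the genes were chosen with these values known. Most of each sum came from *math-14* and *math-15*. *math-10* (chromosome II, 1871542 to 1873348, plus strand) had 9.33, 6.63 and 5.68 normalized counts in EV, 31.7, 29.95 and 32.9 upon *cco-1* RNAi and 158, 171 and 166 upon *his-3* RNAi. The gene rose 4.33-fold upon *cco-1* RNAi (log2 fold change 2.11, SE 0.26, adjusted p = 1.73e-06) and 22.6-fold upon *his-3* RNAi (log2 fold change 4.50, SE 0.18, adjusted p = 3.35e-12), and the treatments differed (log2 fold change -2.39, SE 0.13, adjusted p = 8.50e-11 for *cco-1* RNAi against *his-3* RNAi). The value upon *cco-1* RNAi was 2.11 on the log2 scale with all libraries and fell below the threshold of 2 without EV replicate 3. *math-15*, which begins the run, had 122, 126 and 139 normalized counts in EV, 248, 221 and 210.0 upon *cco-1* RNAi and 395, 385 and 350.3 upon *his-3* RNAi, rising 1.75-fold and 2.91-fold (log2 fold change 0.81, SE 0.10, adjusted p = 2.13e-06, and log2 fold change 1.54, SE 0.093, adjusted p = 5.33e-10). *math-14*, the member of the run with the most reads, had 649, 667 and 727 in EV, 999.6, 1010.3 and 874 upon *cco-1* RNAi and 1191, 927 and 1008 upon *his-3* RNAi (log2 fold change 0.50, SE 0.085, adjusted p = 6.68e-05, and log2 fold change 0.61, SE 0.084, adjusted p = 1.12e-05), and no difference between the treatments was called (log2 fold change -0.11, SE 0.081, adjusted p = 0.226). *math-8*, at 9.33, 9.94 and 5.68 normalized counts in EV, had 8.19, 13.98 and 10.2 upon *cco-1* RNAi and 21.5, 25.8 and 23.6 upon *his-3* RNAi and was called upon *his-3* RNAi (log2 fold change 1.51, SE 0.30, adjusted p = 3.78e-04) and not upon *cco-1* RNAi (log2 fold change 0.40, SE 0.36, adjusted p = 0.353).

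The other 6 genes of the run had too few libraries with reads to pass the filter, and their raw reads are given. In the EV libraries no read was found for *math-13*, *math-16* and *math-7*, which allows up to 3 reads each over that group, while 2 reads were found for *math-5*, 1 for *math-6* and 11 for *math-9*. Upon *his-3* RNAi *math-5* had 84, 73 and 61 reads and *math-6* had 89, 99 and 76, or 99.3 times (95% exact interval 27.1 to 825) and 240.4 times (42.8 to 9531) the EV level at equal depth. *math-16* had 26, 28 and 16 reads, *math-13* had 25, 17 and 20, and *math-7* had 13, 22 and 19. Set against a floor of 3 reads in the EV group at equal depth, these were 21.2, 18.8 and 16.4 times as high. The lower bounds of the exact 95% interval of the ratio to EV were 16.8, 14.9 and 12.9. *math-9* had 13, 10 and 20 reads, 3.56 times the EV level (1.81 to 7.65). Upon *cco-1* RNAi these 6 genes had between 0 and 6 reads over the 3 libraries together, and *math-9* had 1, or 0.0930 times the EV level (0.00216 to 0.640). Every *his-3* RNAi library held at least 10 reads of each of the 6 genes and no library of the other groups held more than 5. The intervals cover counting error only. These genes may resemble one another in sequence, which was not analysed here, and reads that align to several places (6.30 to 7.27% of the entries of each library) are not in their counts. Inside the run, the pseudogene C16C4.9 had 18, 15 and 17 reads upon *his-3* RNAi and 0 in the other 6 libraries, whereas the pseudogene C16C4.16 had 3, 1 and 5 reads upon *his-3* RNAi, 3, 2 and 1 upon *cco-1* RNAi and 0 in EV.

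**Figure D4:**
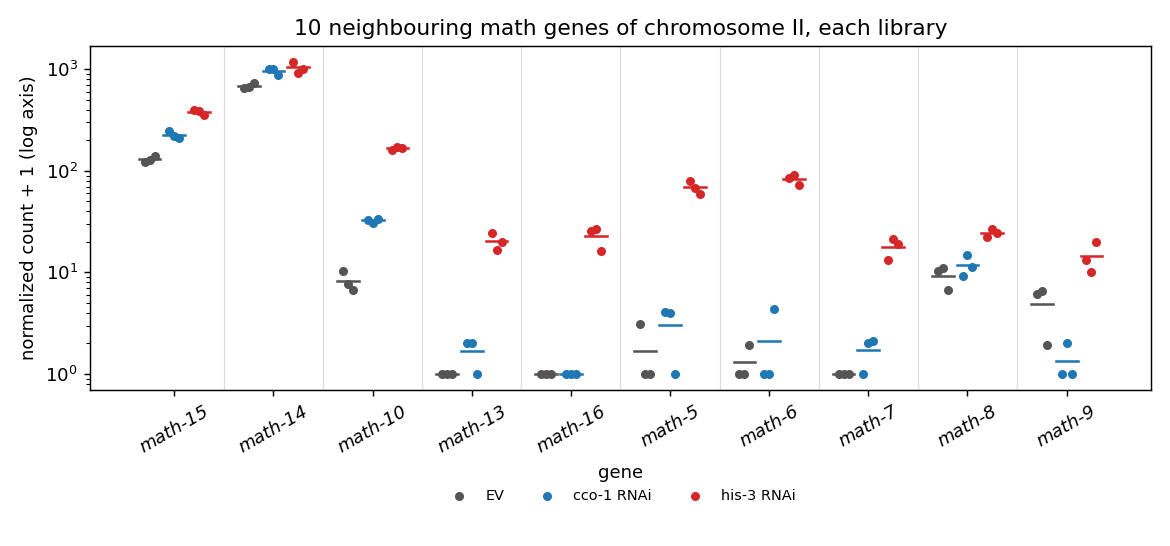
Normalized counts plus 1 (log axis) of the 10 neighbouring math genes of chromosome II in each library, in their order on the chromosome, with a line at the mean of the 3 libraries of a group. The *his-3* RNAi libraries lay above those of EV for each of the 10 genes, from *math-14* (log2 fold change 0.61) to *math-6* (1 read in EV, 264 upon *his-3* RNAi). The genes were chosen with their values known.

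A further pair of math genes outside this run was nearly silent in EV and read upon *his-3* RNAi. *math-28* (chromosome II, 1763372 to 1766555, plus strand) had 3 reads over the EV libraries, 1 over those of *cco-1* RNAi, and 78, 58 and 62 upon *his-3* RNAi, 60.1 times the EV level (20.3 to 294). *math-34*, near the left end of the chromosome (chromosome II, 1028972 to 1033665), had 1 read over the EV libraries, 4, 3 and 2 upon *cco-1* RNAi, and 18, 14 and 14 upon *his-3* RNAi. The level upon *his-3* RNAi was 41.9 times that of EV (7.15 to 1690). Upon *cco-1* RNAi it was, on few reads, 9.21 times that of EV (1.28 to 404). By a rule set after these values were seen, at most 3 reads over the EV libraries and at least 10 in every treated library, 7 of 15 members with at most 3 EV reads were read upon *his-3* RNAi (*math-5*, *math-6*, *math-7*, *math-13*, *math-16*, *math-28* and *math-34*). Over protein-coding genes the share was 4.02% (114 of 2835), over all genes counted 0.498%, and over the other protein-coding genes in the same part of chromosome II 4.6% (15 of 326). Upon *cco-1* RNAi 0 of the 15 members met the rule, beside 0.882% of protein-coding genes. All 7 were math genes, and the 8 that did not meet it were *math-25*, *math-31*, *bath-33*, *btb-6*, *btb-8*, *btb-10*, *btb-11* and *btb-12*. Because the rule followed these values, the shares are a description and not a test. Moreover, *math-5*, *math-6*, *math-7*, *math-13* and *math-16* are close neighbours and may not be independent. When the filter was dropped, so that genes with any read were tested, 9 members were higher past the threshold upon *his-3* RNAi instead of 2, where 3.99% of the 23808 genes then tested were. With the same filter asking for 3 instead of more than 3 libraries, an alternative added after the data were seen, the count was also 9. The added genes passed that filter only through the *his-3* RNAi libraries, where they were high, so that its count is no separate support. The share of all genes under that filter is not given here. The remaining 5 of the 20 genes outside the test had more than 3 reads over the EV libraries: besides *math-9* these were *bath-31*, *btb-7*, *math-19* and *math-23*, with 0 to 8 reads in any library.

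*math-38* (chromosome II, 1577378 to 1579986, minus strand) gave the largest fitted rise of the 69 tested members in both comparisons. It had 3.11, 5.52 and 7.57 normalized counts in EV, 32.7, 32.9 and 30.6 upon *cco-1* RNAi and 139, 137 and 125 upon *his-3* RNAi. All 3 groups were apart, with a 5.77-fold rise upon *cco-1* RNAi (log2 fold change 2.53, SE 0.29, adjusted p = 8.09e-07), a 23.9-fold rise upon *his-3* RNAi (log2 fold change 4.58, SE 0.21, adjusted p = 1.95e-11) and a difference between the treatments (log2 fold change -2.05, SE 0.15, adjusted p = 2.14e-09). *math-41*, with 518, 516 and 479.9 normalized counts in EV, had 531, 542 and 507 upon *cco-1* RNAi, which overlapped EV (log2 fold change 0.06, SE 0.068, adjusted p = 0.411), and 1449, 1395 and 1603 upon *his-3* RNAi, a 2.94-fold rise (log2 fold change 1.56, SE 0.062, adjusted p = 2.87e-12). Its direct neighbours, *math-40* and *math-39*, did not share this rise: upon *his-3* RNAi *math-40* stood at -0.26 on the log2 scale (adjusted p = 0.0307) and *math-39* at 0.11 (adjusted p = 0.254), and both were higher upon *cco-1* RNAi (0.23 and 0.46).

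Upon *his-3* RNAi the btb genes held the largest fall. *btb-17* (chromosome II, 3295405 to 3296658, plus strand) had 215, 205 and 240.4 normalized counts in EV and 228, 259 and 241 upon *cco-1* RNAi, which overlapped, and 57.2, 51.5 and 55.7 upon *his-3* RNAi. This was 0.249 times the EV level (log2 fold change -2.01, SE 0.11, adjusted p = 2.37e-10, and log2 fold change 0.14, SE 0.090, adjusted p = 0.186 upon *cco-1* RNAi). *btb-16*, the next gene on the same strand, went from 287, 325 and 289 in EV to 312, 345 and 351 upon *cco-1* RNAi and 145, 162 and 135 upon *his-3* RNAi, 0.492 times the EV level (log2 fold change -1.02, SE 0.094, adjusted p = 1.09e-07). *btb-18* overlaps the end of *btb-16*. At 55.98, 59.7 and 39.8 normalized counts in EV, 47.1, 44.9 and 57.9 upon *cco-1* RNAi and 44.04, 34.03 and 33.05 upon *his-3* RNAi, it was not called (log2 fold change -0.47, SE 0.20, adjusted p = 0.0549). Both *btb-17* and *btb-16* also differed between the treatments, by 2.14 and 1.19 on the log2 scale (adjusted p = 3.22e-11 and 6.31e-09).

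The rises among btb genes were smaller. *btb-9* (chromosome II, 1728506 to 1730065) had 198, 177 and 201 normalized counts in EV, 266, 252 and 228 upon *cco-1* RNAi and 167, 176 and 172 upon *his-3* RNAi, and rose upon *cco-1* RNAi alone (log2 fold change 0.37, SE 0.089, adjusted p = 0.00135, and log2 fold change -0.16, SE 0.093, adjusted p = 0.146). *btb-19*, at the right end of the chromosome (14520996 to 14522137), went from 315, 289 and 295 in EV to 347, 339 and 384 upon *cco-1* RNAi and 365, 368 and 389 upon *his-3* RNAi and was the btb gene called higher in both (log2 fold change 0.25, SE 0.076, adjusted p = 0.00802, and log2 fold change 0.32, SE 0.074, adjusted p = 0.00165). Its neighbour *btb-20* was lower upon *cco-1* RNAi (log2 fold change -0.27, SE 0.10, adjusted p = 0.0326), a call lost without EV replicate 1 or 3 or *cco-1* RNAi replicate 1. *btb-4* was higher upon *cco-1* RNAi (log2 fold change 0.33, SE 0.13, adjusted p = 0.0293), a call lost without EV replicate 2 or 3 or *cco-1* RNAi replicate 1. *btb-5*, with 4.15, 5.52 and 5.68 normalized counts in EV and 11.3, 7.99 and 11.4 upon *cco-1* RNAi, was the remaining one of the 4 rises (log2 fold change 0.97, SE 0.37, adjusted p = 0.0395). It rested on few reads, and its call was lost at least without EV replicate 3 and without *cco-1* RNAi replicate 1.

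Of the 69 tested genes 12 were called higher in both treatments (*bath-3*, *bath-7*, *bath-21*, *bath-29*, *bath-36*, *bath-39*, *bath-47*, *btb-19*, *math-10*, *math-14*, *math-15* and *math-38*), a share of 17.4% beside 17% of all genes tested. Those lower in both were 5 (*btb-14*, *math-20*, *math-21*, *math-22* and *math-42*), 7.25% beside 16.4%. Another 5 were higher upon *cco-1* RNAi and lower upon *his-3* RNAi (*bath-26*, *math-3*, *math-24*, *math-26* and *math-40*), 7.25% beside 6.71%. The reverse was found for 1 (*bath-30*), 1.45% beside 3.39%, and 14 were called in neither, 20.3% beside 17.9%. Since both comparisons share the EV libraries, these numbers are a description. For the opposite calls the direct comparison bears on the difference, and all 6 genes were called in it. *math-3* had 1349, 1344 and 1302 normalized counts in EV, 1929, 1896 and 1956 upon *cco-1* RNAi and 1010.0, 759 and 964 upon *his-3* RNAi, with log2 values of 0.53 (adjusted p = 5.15e-06) for *cco-1* RNAi and -0.55 (adjusted p = 1.13e-05) for *his-3* RNAi. *math-26*, whose exons it overlaps, had 1379, 1442 and 1496, 1682, 1643 and 1763 and 982, 820.5 and 952, with log2 values of 0.24 (adjusted p = 0.00202) for *cco-1* RNAi and -0.65 (adjusted p = 1.62e-07) for *his-3* RNAi. *math-4*, the next gene on the other strand, was higher upon *cco-1* RNAi (log2 fold change 0.50, SE 0.059, adjusted p = 1.01e-06) and not called upon *his-3* RNAi (log2 fold change -0.14, SE 0.061, adjusted p = 0.0573). *math-28*, to the left of *math-26*, is the gene described above with few reads outside *his-3* RNAi, so that within 19.2 kb (1763372 to 1782574) math genes were found with opposite changes upon *his-3* RNAi. The call of *bath-30* upon *his-3* RNAi (log2 fold change 0.15, SE 0.062, adjusted p = 0.0476) was lost when any library other than *his-3* RNAi replicate 2 was left out. That of *btb-14* (log2 fold change -0.14, SE 0.055, adjusted p = 0.0406) was lost without EV replicate 2 or 3, *cco-1* RNAi replicate 1 or 3, or *his-3* RNAi replicate 1 or 2, and its sign turned with library size or the reference genes as the scaling.

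Compared directly, 19 members were higher and 16 lower upon *cco-1* RNAi than upon *his-3* RNAi, where 31.8% and 36.8% of all genes tested were. The math genes made up 9 of each, the bath genes 6 of each, and the btb genes 4 and 1. The lowest p among the higher ones were those of *bath-26* (log2 fold change 1.82, SE 0.092, adjusted p = 1.93e-11), *btb-17* and *bath-45* (log2 fold change 1.83, SE 0.12, adjusted p = 5.25e-10), and among the lower ones those of *math-41* (log2 fold change -1.49, SE 0.062, adjusted p = 1.39e-12), *math-10* and *math-38*. The count of lower members was 10 without EV replicate 1, with DESeq2's size factors (21 higher to 10 lower) or with only the compared groups in the fit, and 9 with DESeq2 itself (20 higher to 9 lower). Without EV replicate 1 the bath genes among them numbered 2, without *cco-1* RNAi replicate 1 they numbered 3, and without *his-3* RNAi replicate 2 there were 2 btb genes.

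**Figure D5:**
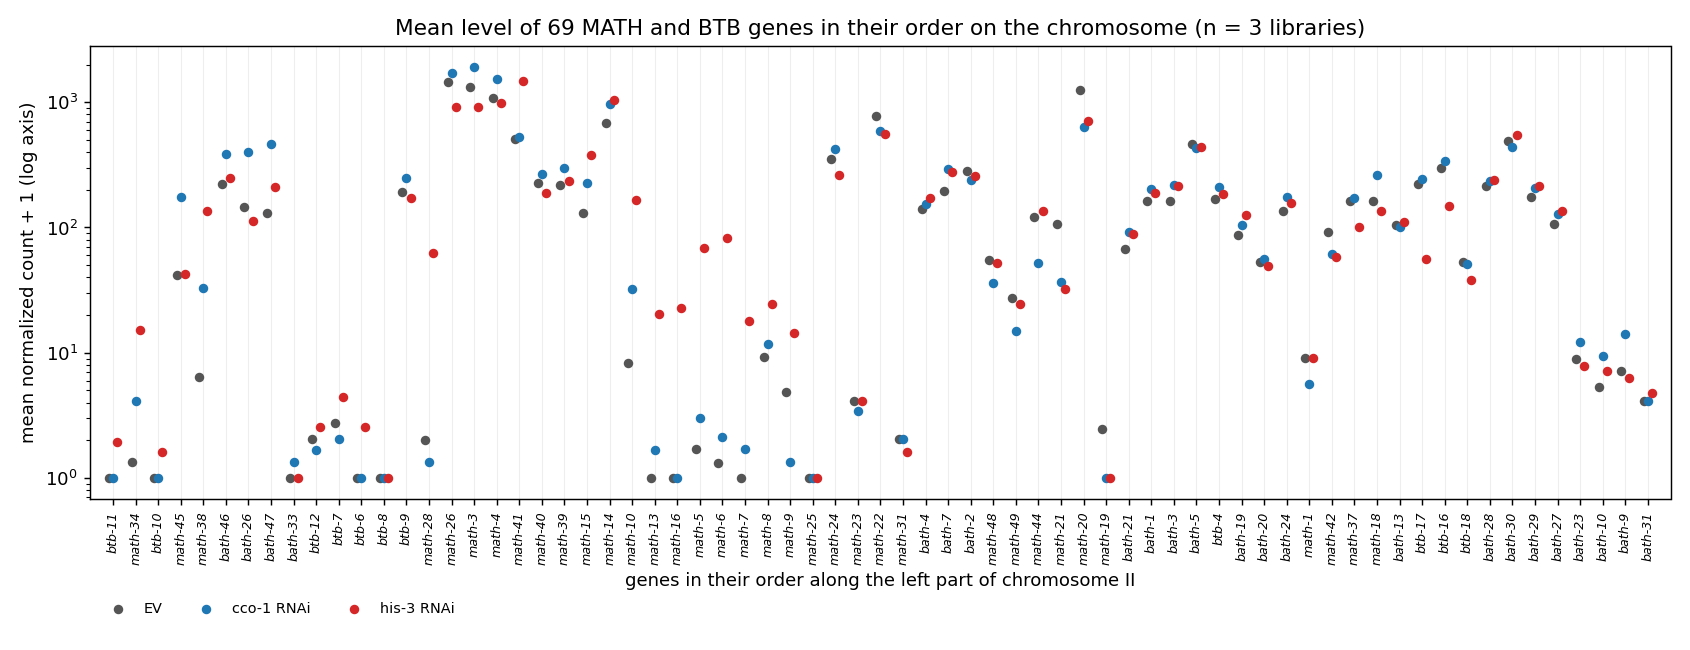
Mean normalized count plus 1 (log axis, n = 3 libraries per group) of the 69 genes in the left part of chromosome II, in their order along the chromosome from left to right. From *math-10* to *math-9* the *his-3* RNAi points stood apart above the others, with *math-10* at a log2 fold change of 4.50, while from *bath-46* to *bath-47* the *cco-1* RNAi points were highest.

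Along the left part of chromosome II, 49 members were tested. Upon *cco-1* RNAi 24 were higher and 9 lower, and upon *his-3* RNAi 15 were higher and 12 lower. Of the 579 other genes tested in this stretch, 32.0% were higher and 32.6% lower upon *cco-1* RNAi and 30.1% and 22.3% upon *his-3* RNAi. The 20 members elsewhere were 6 higher and 4 lower upon *cco-1* RNAi, then 6 higher and 2 lower upon *his-3* RNAi. Changes of 1 or more on the log2 scale were found for 8 of 49 members in the stretch in each comparison (16.3%). Of the other genes there 26.4% changed as much upon *cco-1* RNAi and 16.4% upon *his-3* RNAi. Such changes were found for 2 and 0 of the 20 members elsewhere, where the largest size upon *his-3* RNAi was 0.99. The share of all genes tested with changes of this size is not given here. Whether position and change are related was not tested.

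The 4 members with the highest levels per length in EV (*math-33*, *bath-42*, *bath-40* and *bath-44*) had log2 fold changes between -0.20 and 0.18 in both comparisons. Those next in level, *math-20* and *btb-2*, fell, *math-20* in both treatments and *btb-2* upon *cco-1* RNAi. *math-33* (chromosome V, 11113907 to 11118824, plus strand) had 8591, 8892 and 8681 normalized counts in EV, 9022, 9287 and 9280.5 upon *cco-1* RNAi and 8537, 8886 and 8609.6 upon *his-3* RNAi, and was called in neither comparison (log2 fold change 0.08, SE 0.042, adjusted p = 0.118, and log2 fold change -0.01, SE 0.042, adjusted p = 0.9). Its level per length was 67.7, 76.3 and 78.4 in the 3 groups. Levels per length carry no TMM scaling here, so that the groups are to be compared by normalized counts. *bath-42* had the highest level among the bath genes, 56.6 per length in EV, 52.7 upon *cco-1* RNAi and 70.2 upon *his-3* RNAi. Its normalized counts were 3001, 2834 and 2967 in EV, 2559, 2569.7 and 2549 upon *cco-1* RNAi and 3094, 3163 and 3132 upon *his-3* RNAi, so that it was lower upon *cco-1* RNAi (log2 fold change -0.20, SE 0.040, adjusted p = 3.07e-04) and not called upon *his-3* RNAi (log2 fold change 0.09, SE 0.039, adjusted p = 0.0556). The fall was not called with the reference genes as the scaling. *bath-40* was called in neither comparison (log2 fold change 0.04, SE 0.044, adjusted p = 0.37, and log2 fold change 0.00, SE 0.043, adjusted p = 0.959) and *bath-44* was higher upon *his-3* RNAi only (log2 fold change 0.18, SE 0.046, adjusted p = 0.00325, and log2 fold change 0.04, SE 0.046, adjusted p = 0.505). Among btb genes the highest level was that of *btb-2* (chromosome II, 6401949 to 6403105). Its normalized counts were 792, 799 and 784 in EV, 488, 602 and 504 upon *cco-1* RNAi and 802, 682 and 752 upon *his-3* RNAi, 0.672 times the EV level upon *cco-1* RNAi (log2 fold change -0.57, SE 0.078, adjusted p = 5.84e-06) and overlapping EV upon *his-3* RNAi (log2 fold change -0.09, SE 0.075, adjusted p = 0.346).

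Genes of the cullin ligases and of other adaptors or candidate adaptors were set beside the members. *cul-3*, the scaffold itself, had 4639, 4958 and 4939 normalized counts in EV, 4669, 4765 and 4724 upon *cco-1* RNAi and 4508, 5016 and 4547 upon *his-3* RNAi, overlapping throughout (log2 fold change -0.04, SE 0.048, adjusted p = 0.489, and log2 fold change -0.05, SE 0.048, adjusted p = 0.426). With library size or the reference genes as the scaling, its log2 fold change upon *his-3* RNAi was 0.17 and 0.24, while the median of all genes was 0.24 and 0.31. For the lists that follow, 34.9% of all genes tested were higher and 35.9% lower upon *cco-1* RNAi, and 26.9% and 27.9% upon *his-3* RNAi. Of 21 cullin, RING, neddylation and COP9 signalosome genes, 10 were higher and 3 lower upon *cco-1* RNAi and 3 higher and 4 lower upon *his-3* RNAi. *cul-6*, a cullin of the SKP1 and F-box type of ligase, was the one with the largest change: 260.2, 251 and 299 normalized counts in EV, 402, 418 and 359.8 upon *cco-1* RNAi and 667, 575 and 739 upon *his-3* RNAi, or 1.46-fold and 2.44-fold higher (log2 fold change 0.54, SE 0.10, adjusted p = 1.95e-04, and log2 fold change 1.29, SE 0.10, adjusted p = 9.85e-09). A list of 9 genes with other names was chosen as candidate BTB adaptors, and whether each binds CUL-3 was not examined. Of these, 6 were higher and 3 lower upon *cco-1* RNAi and 6 higher and 2 lower upon *his-3* RNAi. *mel-26* was among the higher ones, with 1645, 1479 and 1509.7 normalized counts in EV, 1844, 1856 and 1862 upon *cco-1* RNAi and 2310.4, 2307 and 2090.3 upon *his-3* RNAi (log2 fold change 0.26, SE 0.052, adjusted p = 2.55e-04, and log2 fold change 0.53, SE 0.051, adjusted p = 1.77e-07). The katanin genes *mei-1* and *mei-2*, whose products form the severing complex, were also higher in both, by 0.49 and 0.26 upon *cco-1* RNAi and 0.28 and 0.49 upon *his-3* RNAi on the log2 scale, and the call of *mei-2* upon *cco-1* RNAi was lost without *cco-1* RNAi replicate 1. Of the F-box genes (fbxa, fbxb and fbxc), 167 of 322 were tested. They were 88 higher and 24 lower upon *cco-1* RNAi (median log2 fold change 0.46) and 83 higher and 16 lower upon *his-3* RNAi (median 0.41). Among 12 tested SKP1-related genes, the adaptors of the F-box proteins, 4 were higher and 3 lower upon *cco-1* RNAi, then 5 higher and 1 lower upon *his-3* RNAi. No difference between these lists and the math, bath and btb genes was tested.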

How the data were processed

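The authors sequenced stranded libraries of polyadenylated RNA for 100 cycles on 1 lane, aligned the reads with STAR (2.5.3a) to WBcel235 with the annotation of Ensembl release 83, and counted reads per gene with HTSeq. The deposited table holds whole-number counts of 46739 genes in 9 libraries, neither normalized nor filtered. HTSeq's summary lines (7.47 to 8.34% of the entries of a library) were left out of the library sizes. Samples were grouped by their labels. Symbols, positions and exon lengths came from the Ensembl 115 annotation of the same build.

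The 16817 genes that had over 5 reads in more than 3 of the 9 libraries were tested with the quasi-likelihood F test of edgeR 4.0.16 (R 4.3.3). TMM scaling and 1 model of the 3 groups over all 9 libraries were used, with a prior count of 0.125 and Benjamini-Hochberg adjustment over all genes tested. The paper names limma, which was run as limma-voom (3.58.1), an alternative, as was DESeq2 (1.42.0). TMM factors were 0.915 to 0.939 in EV, 0.993 to 0.994 upon *cco-1* RNAi and 1.06 to 1.11 upon *his-3* RNAi, and the biological coefficient of variation was 4.92%. The SE given beside a log2 fold change was derived from F, as the absolute change over the root of F. Untested genes are given as raw reads, with the ratio of summed reads at equal effective depth and its exact 95% binomial interval. On simulated counts for *cco-1* RNAi against EV (16817 genes, 200 changed), 91 of 100 genes changed by 1 on the log2 scale and 99 of 100 changed by 2 were called, with 6 false calls. The simulation gave all genes the same biological variation and changed far fewer genes than were called in the data. Its rates therefore need not hold for the data. Libraries of a group differed beyond sampling noise, so that none was counted as a repeat of another.

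The members and lists were chosen with earlier results of these data known. The text names members past the fold change threshold, the 3 higher and 3 lower with the lowest p in each class and comparison, those with the highest levels and those read but not tested. Other members, named as neighbours of these, in lists of calls or for large changes, were chosen after their values were seen. Other scalings, filters, thresholds, fits and left-out libraries were tried, and promoter and protein sequences were not analysed here.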

Additional observations from a re-analysis of the deposited data

How the results depend on the processing

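With all alternatives together, 187 of 214 recomputed member counts stayed within 1.5 times their value. Upon *cco-1* RNAi, scaling to *act-1* and *pmp-3* gave 46 higher and 7 lower members, where TMM gave 30 and 13. Upon *his-3* RNAi (21 and 14 with TMM) it gave 37 and 8, and library size alone gave 35 and 9. Past a log2 fold change of 2, the lower count upon *his-3* RNAi went from 1 to 0 with upper quartile, library size alone or the reference genes, and with a prior count of 2, which also took the higher count upon *cco-1* RNAi from 4 to 2. Upon *his-3* RNAi 9 instead of 2 members were higher past that threshold without the filter or with more than 5 reads in at least 3 libraries (added after the data were seen), and 5 with at least 50 reads in every library of a group. Both filters that took in more genes gave 5 instead of 4 higher and 1 instead of 0 lower members past that threshold upon *cco-1* RNAi. The genes so added to the counts have more than 5 reads in the libraries of 1 group only, and a filter that asks for more than 3 libraries leaves them out by its construction. A log2 fold change of at least 1 gave 8 higher and 2 lower upon *cco-1* RNAi and 5 higher and 3 lower upon *his-3* RNAi. The share of all genes tested at that threshold is not given here, so that these counts have no background beside them. For *cco-1* RNAi against *his-3* RNAi the lower count was 16, but 9 with DESeq2, 10 with its size factors, 10 with only the groups compared, and 9 at an adjusted p under 0.01. The cause was not tested. Leaving out each library gave 25 to 33 higher and 10 to 13 lower members upon *cco-1* RNAi (3 to 4 and 0 past the threshold) and 17 to 27 higher and 12 to 15 lower upon *his-3* RNAi (2 and 0 to 1). In the direct comparison it gave 19 to 20 higher and 10 to 18 lower. Upon *his-3* RNAi at least 12 named genes had values on both sides of 0 over the alternatives. Those called under TMM or under the other scaling that turned sign with library size alone and with the reference genes were *bath-38*, to 0.067 and 0.14, *btb-14*, to 0.079 and 0.15, *math-33*, to 0.21 and 0.28, and *cul-3*, to 0.17 and 0.24. *cul-3* turned to -0.11 in the direct comparison with library size alone. The median of all genes then shifted up by a like amount upon *his-3* RNAi, to 0.24 and 0.31.

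The replicate numbers are shared by the groups. Deviations of same-numbered libraries had correlations of -0.041 to 0.053, none above 0.1, and those of differently numbered libraries -0.070 to 0.068. No pairing by number was thus seen, though such correlations cannot exclude that same-numbered libraries were handled together. With the number as a replicate block 31 members were higher and 13 lower upon *cco-1* RNAi, 20 and 13 upon *his-3* RNAi, and 19 and 15 in the direct comparison. Depth limits the genes with a few reads per library, for most of which levels upon *cco-1* RNAi and in EV cannot be ordered.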
